A study of Mus musculus with 3 samples.

Results

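The 9 genes described here encode core components of the Nodal pathway and of left-right (LR) signalling: the ligands *Nodal*, *Gdf1*, and *Gdf3*, the secreted antagonists *Lefty1* and *Lefty2*, the EGF-CFC co-receptors *Tdgf1* (Cripto) and *Cfc1* (Cryptic), the activin receptor *Acvr2b*, and the signal transducer *Smad2*. They were chosen by gene symbol, and all 9 were found among the 30854 symbols of the array, 8 of them measured by a single probe and *Nodal* by 2. Wild-type mouse embryos at the early head-fold (EHF) stage provided RNA of their embryonic region, which was hybridized to 3 Illumina Mouse-6 arrays, labelled replicates 1, 2, and 3, which form the only group. The labels give the strain as CD-1 and the tissue as embryo, whereas the methods of the study name the stock ICR. According to those methods the extraembryonic portion was cut away, and no treatment is named. The methods name TRIzol and the labels a column kit for RNA extraction. The sources do not settle whether an array holds the RNA of 1 embryo or of a pool, so the spread between arrays may be partly technical.

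Nodal and Gdf1 are TGFβ family ligands that act together, and Nodal needs an EGF-CFC protein beside activin receptors to signal. The receptors phosphorylate Smad2 and Smad3, which enter the nucleus with Smad4 and bind DNA with partners such as Foxh1. Nodal induces its own antagonists, the Lefty proteins, and in the mouse this circuit acts first in the epiblast and primitive streak, then around the node, and later in the left lateral plate mesoderm (LPM).

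A signal was called above background when each of the 3 arrays gave a detection p under 0.01. For a symbol with 1 probe this p is the share of the 936 negative-control probes on the same array that were at least as bright, and for a symbol with several probes, such as *Nodal*, it is a value combined over them. By this rule 3 of the 9 genes were above background in the EHF stage embryonic region: *Acvr2b*, *Gdf1*, and *Smad2*. Over all symbols 20.6% were called, 20.8% of those with a single probe and 21% of those with several, so a count of 3 among 9 is a description of these genes and not evidence of a difference from other genes. Of the other 6 genes, *Nodal*, *Lefty2*, and *Cfc1* passed the threshold on 1 array each, and *Lefty1*, *Gdf3*, and *Tdgf1* on none. By array, 5 of the 9 genes were detected on replicate 1, 4 on replicate 2, and 3 on replicate 3. The arrays differed in the same order over all symbols, with 29.2%, 26.6%, and 23.3% detected.

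**Figure D1:**
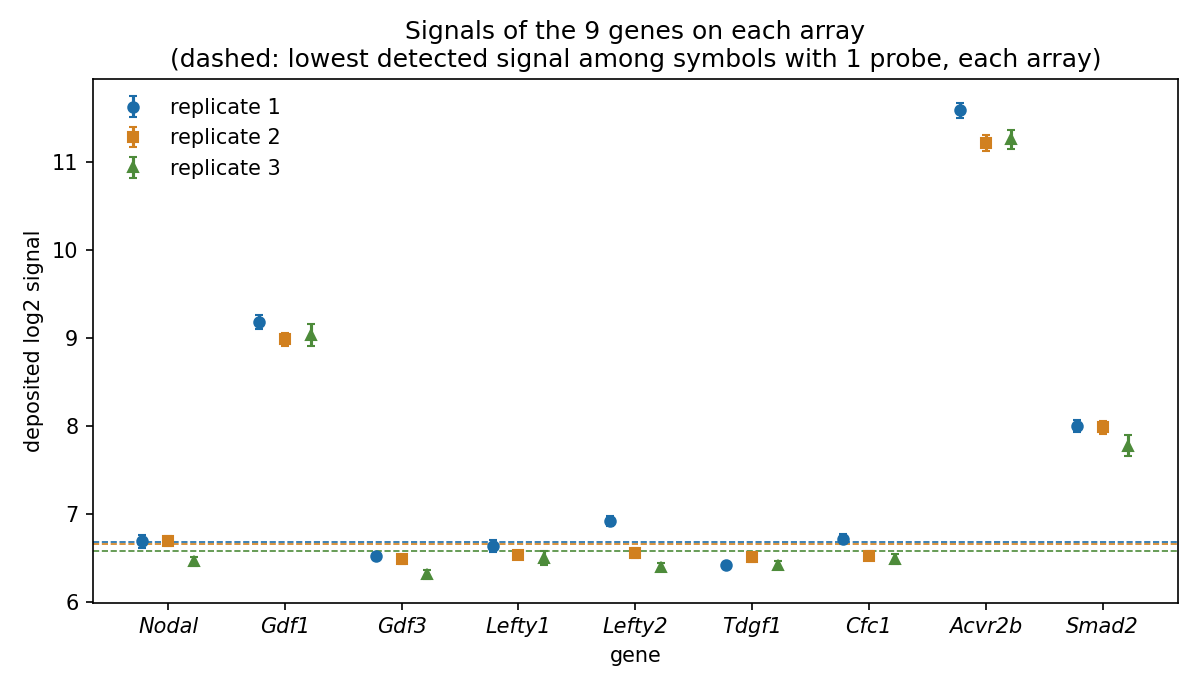
Deposited log2 signal (y axis) of the 9 genes on replicates 1, 2, and 3 (points), with the standard error over beads as bars and the lowest detected signal among symbols with 1 probe on each array as dashed lines. *Acvr2b*, *Gdf1*, and *Smad2* lay above these lines on every array, and the other 6 genes lay close to them or below, except *Lefty2* on replicate 1 at 6.92.

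*Gdf1*, which encodes a ligand that is needed for Nodal activity in LR patterning, was the only one of the 3 ligand genes above background. As deposited, its log2 signal reached 9.18 for replicate 1, 8.99 for replicate 2, and 9.04 for replicate 3. The number of beads behind these values was 46, 45, and 35. On none of the arrays was any of the 936 control probes as bright. The mean was 9.07 ± 0.10 (SD, n = 3), and the standard error over beads within an array was 0.09, 0.08, and 0.13 on the same scale. The SD of its normalized level over the arrays was larger, 0.31. Once background-corrected and quantile normalized, *Gdf1* stood 4.0 above the background of its array on the log2 scale. This background is the lowest detected level among symbols with 1 probe. The difference was seen on each array, with single arrays at 3.98, 3.88, and 4.15. The one-sided test of limma gave an adjusted p of 3.92e-158 with a standard error of 0.15, which the fit made the same for every gene. Over 9 alternatives the level ranged from 2.42 to 4.55, with a largest adjusted p of 8.57e-05 from limma.

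In the mouse *Gdf1* can be transcribed together with *Cers1*, a ceramide synthase gene, as a single transcript that holds both reading frames. RefSeq (GRCm38.p6) lists 2 start sites for *Gdf1*, and 1 of them is also the start of *Cers1*. Promoter sequences were available for 5 of the 9 genes, each covering 250 bases before and 50 bases after a start site. Those of *Gdf1*, *Acvr2b*, and *Nodal* are shown from 5′ to 3′, since *Gdf1* and *Acvr2b* were called and *Nodal* is the ligand that names the pathway, with every CG dinucleotide in capitals. The start shared by *Gdf1* and *Cers1* lies at chr8:70315525-70315824 (plus strand) and holds 22 CG, and the start of *Gdf1* alone at chr8:70329515-70329814 (plus strand) holds 8. The region of *Acvr2b* at chr9:119401928-119402227 (plus strand) holds 27 CG, and that of *Nodal* at chr10:61417722-61418021 (plus strand) holds 5.
Gdf1 and Cers1, shared start: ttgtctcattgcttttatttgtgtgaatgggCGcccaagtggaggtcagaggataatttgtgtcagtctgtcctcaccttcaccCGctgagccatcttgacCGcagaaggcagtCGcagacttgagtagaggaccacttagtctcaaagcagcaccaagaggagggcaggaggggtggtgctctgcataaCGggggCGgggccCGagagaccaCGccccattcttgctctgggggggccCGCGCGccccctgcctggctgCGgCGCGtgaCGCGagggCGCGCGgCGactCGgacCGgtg
Gdf1, own start: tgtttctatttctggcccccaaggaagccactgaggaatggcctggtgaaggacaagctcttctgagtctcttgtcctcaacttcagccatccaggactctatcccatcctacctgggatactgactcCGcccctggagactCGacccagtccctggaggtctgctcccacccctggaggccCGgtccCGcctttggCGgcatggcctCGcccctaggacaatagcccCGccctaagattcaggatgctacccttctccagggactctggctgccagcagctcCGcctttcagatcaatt
Acvr2b: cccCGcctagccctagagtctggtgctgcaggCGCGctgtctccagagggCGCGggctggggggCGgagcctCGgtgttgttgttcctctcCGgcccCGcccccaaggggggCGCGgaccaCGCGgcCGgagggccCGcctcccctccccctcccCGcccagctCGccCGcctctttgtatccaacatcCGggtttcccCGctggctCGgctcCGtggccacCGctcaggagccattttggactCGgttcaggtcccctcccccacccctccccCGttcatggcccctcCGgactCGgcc
Nodal: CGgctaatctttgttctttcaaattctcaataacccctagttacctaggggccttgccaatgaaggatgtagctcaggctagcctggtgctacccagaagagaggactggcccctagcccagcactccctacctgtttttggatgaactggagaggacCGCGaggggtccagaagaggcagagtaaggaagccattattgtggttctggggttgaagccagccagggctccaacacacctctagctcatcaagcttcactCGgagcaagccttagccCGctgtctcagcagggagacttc

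Of all 32851 promoter regions, 15.5% held at least as many CG as that of *Acvr2b* and 23.1% as many as the shared start of *Gdf1*. The corresponding shares were 48.7% for the start of *Gdf1* alone, 52.1% for *Tdgf1* with 7 CG, 62.0% for *Nodal*, and 85.9% for *Cfc1* with 2 CG. For symbols with a promoter in the table, each was counted by its region with the most CG, unlike the shares above. The median was then 23 CG for the 3363 called above background and 12 for the 9363 that were not. These counts describe the regions and say nothing of which start was used in these embryos.

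*Cers1*, listed on the array under its older symbol *Lass1*, was not above background. Its log2 signals were 6.59, 6.36, and 6.40 on replicates 1, 2, and 3, and 99, 841, and 352 of the 936 controls were at least as bright. The probe for *Gdf1* therefore gave a clear signal on arrays where the probe for *Cers1* did not. The position of either probe in the joint transcript was not analysed here.

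*Nodal*, the ligand from which the pathway takes its name, gave log2 signals of 6.69, 6.69, and 6.46 on replicates 1, 2, and 3. Among symbols with 1 probe, the lowest signals detected on these arrays were 6.69, 6.66, and 6.58. *Nodal* lay close to these values on replicates 1 and 2 and below on replicate 3. Symbols with several probes can be detected at lower signals, as *Noto* was on replicate 3 at 6.49, so these values set no limit for *Nodal*. Its detection p-values were 0.439, 5.71e-05, and 0.0711. The first of these is high although the signals of replicates 1 and 2 differed by less than the standard error over beads, 0.07 and 0.06. *Nodal* is measured by 2 probes, and for such symbols the combined p follows from the sum of the p-values of both probes, a relation that 97.2% of 9066 values from symbols with 2 probes obeyed to within 0.05 of a control probe. Read in this way, the number of controls as bright as each *Nodal* probe summed to 877 on replicate 1, 10 on replicate 2, and 353 on replicate 3.

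The mean signal limits how such a sum can divide between the probes. On replicate 1, 2 probes of equal brightness would have had a signal of 6.51, below the 6.69 measured. Whether the deposited mean was taken over log or linear values, the brighter probe can have had at most 1 of 936 controls as bright as itself, so that nearly all of the 877 belonged to the dimmer probe. The probes for *Nodal* were thus far apart on replicate 1, one among the brightest controls and the other among the dimmest. On replicate 2 both were among the brightest controls, with 10 between them. On replicate 3 the brighter probe had at most 59 controls as bright, and whether it passed the threshold alone was not settled by this bound. After normalization the level of *Nodal* was -0.14 relative to background, with single arrays at 0.0025, 0.13, and -0.55 (adjusted p from limma 1.00).

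*Gdf3*, a ligand of the early epiblast, was at background. Its log2 signals were 6.52, 6.48, and 6.31, with 397, 345, and 766 of the 936 controls as bright. No array came near the threshold, and the normalized level was -0.56 relative to background.

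**Figure D2:**
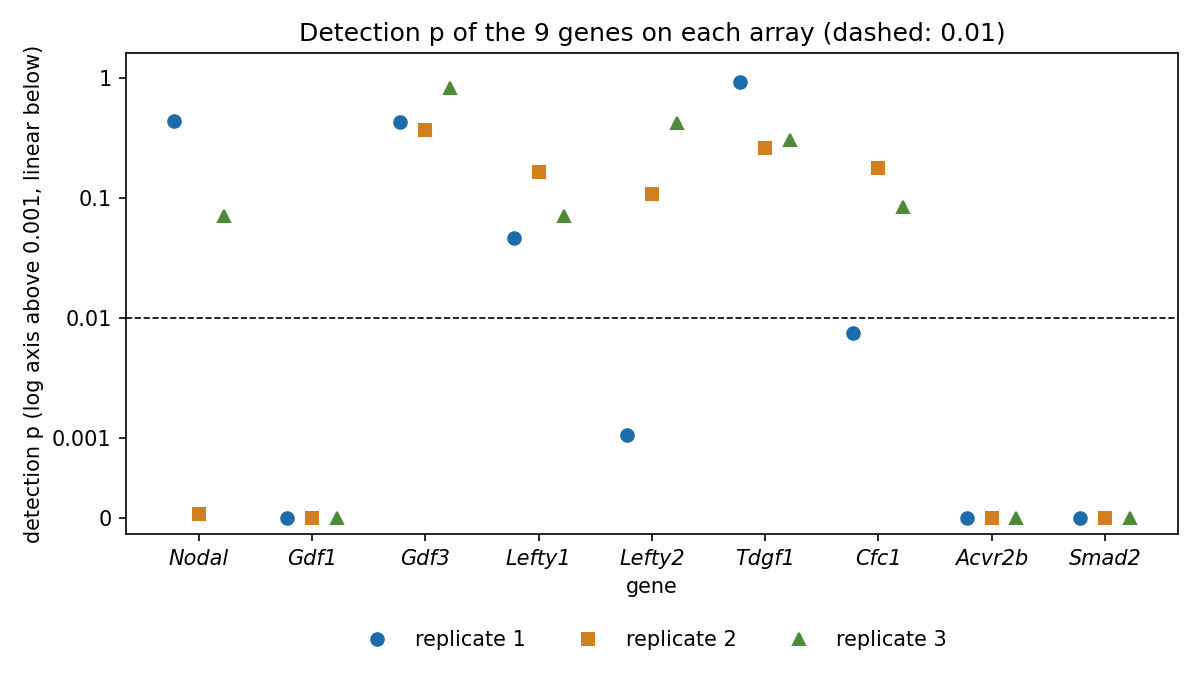
Detection p (y axis, logarithmic above 0.001 and linear below) of the 9 genes on replicates 1, 2, and 3, with the threshold of 0.01 as a dashed line. *Gdf1*, *Acvr2b*, and *Smad2* had a detection p of 0 on each array, while *Nodal* passed on replicate 2 only and *Lefty2* and *Cfc1* on replicate 1 only.

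*Lefty1* and *Lefty2* encode closely related inhibitors that bind Nodal and its co-receptors, with *Lefty1* known from the midline and *Lefty2* from the left LPM. *Lefty2* gave log2 signals of 6.92, 6.55, and 6.40 on replicates 1, 2, and 3. On replicate 1 a single control probe of 936 was as bright, whereas on replicates 2 and 3 there were 101 and 393. The standard errors over beads were 0.06, 0.06, and 0.04, and they cover the beads of an array and not the spread between samples. *Lefty2* thus passed the threshold on replicate 1 only and was not called. *Lefty1* had log2 signals of 6.64, 6.53, and 6.50, with 43, 153, and 66 controls as bright. It met the threshold on no array, although it was in the brighter part of the controls on each. The normalized levels relative to background were -0.15 for *Lefty2* (single arrays 0.58, -0.31, and -0.72) and -0.30 for *Lefty1* (single arrays -0.12, -0.36, and -0.40). The spread of *Lefty2* over the arrays, an SD of 0.49, exceeded the median SD of 0.17 among the 6357 symbols above background and of 0.08 among the 20682 detected on no array. As deposited, its SD of 0.27 was close to the median of 0.25 among the symbols above background and above the median of 0.085 among those detected on no array. How far each probe tells the related transcripts apart was not analysed here.

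The EGF-CFC co-receptors were not above background. *Cfc1*, which is required for the establishment of LR asymmetry, gave log2 signals of 6.71, 6.53, and 6.49 on replicates 1, 2, and 3, with 7, 167, and 79 of the 936 controls as bright. Replicate 1 passed the threshold narrowly, and the other arrays did not. *Tdgf1*, which acts earlier in the epiblast and streak, had log2 signals of 6.42, 6.51, and 6.42, with 857, 244, and 285 controls as bright. Its signal was indistinguishable from the controls on all arrays, and its normalized level was -0.53 relative to background (-0.25 for *Cfc1*).

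*Acvr2b*, a type II receptor shared by Nodal and activin ligands, was at 11.59 on replicate 1, 11.22 on replicate 2, and 11.26 on replicate 3 on the deposited log2 scale, with 42, 37, and 39 beads. No control probe was as bright on any array. The mean was 11.36 ± 0.20 (SD, n = 3), and the standard errors over beads were 0.08, 0.09, and 0.11. The normalized level was 6.46 above background, with single arrays at 6.59, 6.26, and 6.53. Over 9 alternatives it ranged from 4.70 to 7.01, with a largest adjusted p of 8.54e-05 from limma. This distance was many times the SD of its normalized level over the arrays, 0.26.

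*Smad2*, the transducer that the receptors phosphorylate, was at 8.0 on replicate 1, 7.99 on replicate 2, and 7.78 on replicate 3 on the deposited log2 scale, with 49, 50, and 39 beads. It too was brighter than every control probe on each array. The mean was 7.92 ± 0.12 (SD, n = 3). The normalized level was 2.56 above background, with single arrays at 2.49, 2.62, and 2.57, and the adjusted p from limma was 9.22e-66. Over 9 alternatives the level ranged from 1.28 to 3.11, with a largest adjusted p of 0.00013 from limma.

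No order between the arrays was read from these 3 genes. As deposited, *Acvr2b*, *Gdf1*, and *Smad2* were brightest on replicate 1, whereas after quantile normalization all of them were highest on replicate 3, at 11.59, 9.22, and 7.63 on the log2 scale. Probes differ in how strongly they bind their targets, so the genes were compared with the background of their own array and not with each other. In RNA from a whole embryonic region, a low signal from few expressing cells and a low amount of RNA in each cell cannot be told apart.

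The limma test, which called 25.7% of all symbols, called the same 3 genes among the 9. This count depended on the background chosen. Against the median level of symbols with a detection p between 0.4 and 0.6, which 37.1% of all symbols passed, it was 6 of 9, with *Nodal*, *Lefty1*, and *Cfc1* added. Against the first background the levels of the other 6 lay between -0.56 and -0.14 relative to background. With a detection p under 0.01 on at least 1 array, a rule that 33% of all symbols met, the count was 6 of 9.

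The pathway was then examined through 46 genes in 10 lists by role, which include the 9 genes. *Inhbb*, *Smad4*, and *Drap1* were not analysed here. The other 43 were, *Dnah11* under its older symbol *Dnahc11* and *Kif3b* under the symbol in capitals, and 15 were above background. Without the 9 genes, 12 of 34 were called, where 20.6% of all symbols were, and no test sets these genes apart from others. The counts by role rest on few genes each and are descriptions beside the same 20.6%. The median level of the 43 genes was 0.067 above background, where the median of all symbols was -0.46.

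Among the further ligands and secreted antagonists, *Inhba*, which encodes an activin subunit, was not above background. *Fst*, which encodes the activin inhibitor follistatin, gave log2 signals of 9.30, 8.65, and 8.36 on replicates 1, 2, and 3, all above background. *Cer1*, an antagonist of Nodal made in the anterior endoderm, was detected on all arrays with weak signals of 6.95, 6.68, and 6.56, and its level of 0.22 above background did not pass the limma test (adjusted p 0.259). *Dand5* (*Cerl2*), the Nodal antagonist of the perinodal region, was not detected on any array, with signals of 6.53, 6.47, and 6.39 and detection p-values of 0.357, 0.452, and 0.437. Of the 5 antagonist genes, 2 were thus called, beside 20.6% of all symbols.

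Of the 4 receptor genes, 1 was called, *Acvr2b*, a share near the 20.6% of all symbols. The type II receptor *Acvr2a* and the type I receptors *Acvr1b* and *Acvr1c*, through which Nodal can signal, had mean log2 signals of 6.37, 6.56, and 6.55. None of them was detected on any array. *Acvr1b* has 3 probes, whose combined p can hide a single probe with signal.

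*Smad3*, the second transducer, gave log2 signals of 8.96, 8.75, and 8.45 on replicates 1, 2, and 3 and a normalized level 3.60 above background. *Foxh1*, the DNA-binding partner of Smad2 and Smad3, had signals of 7.51, 7.37, and 7.14 and a level of 1.63. *Trim33*, which binds these Smads on chromatin, had signals of 7.95, 7.80, and 7.56 and a level of 2.34. All of these were above background, so both Smads and both nuclear partners analysed were called, beside 20.6% of all symbols.

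None of the 5 intracellular inhibitors met the detection rule, and neither of the convertases did, beside 20.6% of all symbols. *Tgif1* was detected on replicates 1 and 2 and missed on replicate 3 at a detection p of 0.0165, and *Furin* was detected on replicate 1 only. All of these genes but *Smad7* have several probes, and a combined p can hide a single probe with signal. *Smad7*, a feedback inhibitor of the receptors, and *Pmepa1* had levels of -0.62 and -0.51 relative to background. *Ski* and *Skil*, corepressors of Smads, and *Tgif1*, a homeodomain corepressor, had levels of 1.64, 1.32, and 1.34 above background and passed the limma test. *Furin*, a protease that cleaves the Nodal precursor, had a level of 3.19 and passed it as well, whereas *Pcsk6*, a second such protease, was at -0.26. Against the detection rule, the limma test added 6 genes (*Ski*, *Skil*, *Tgif1*, *Furin*, *Dnah11*, and *Kif3a*), all with several probes, and left out 1, *Cer1*.

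**Figure D3:**
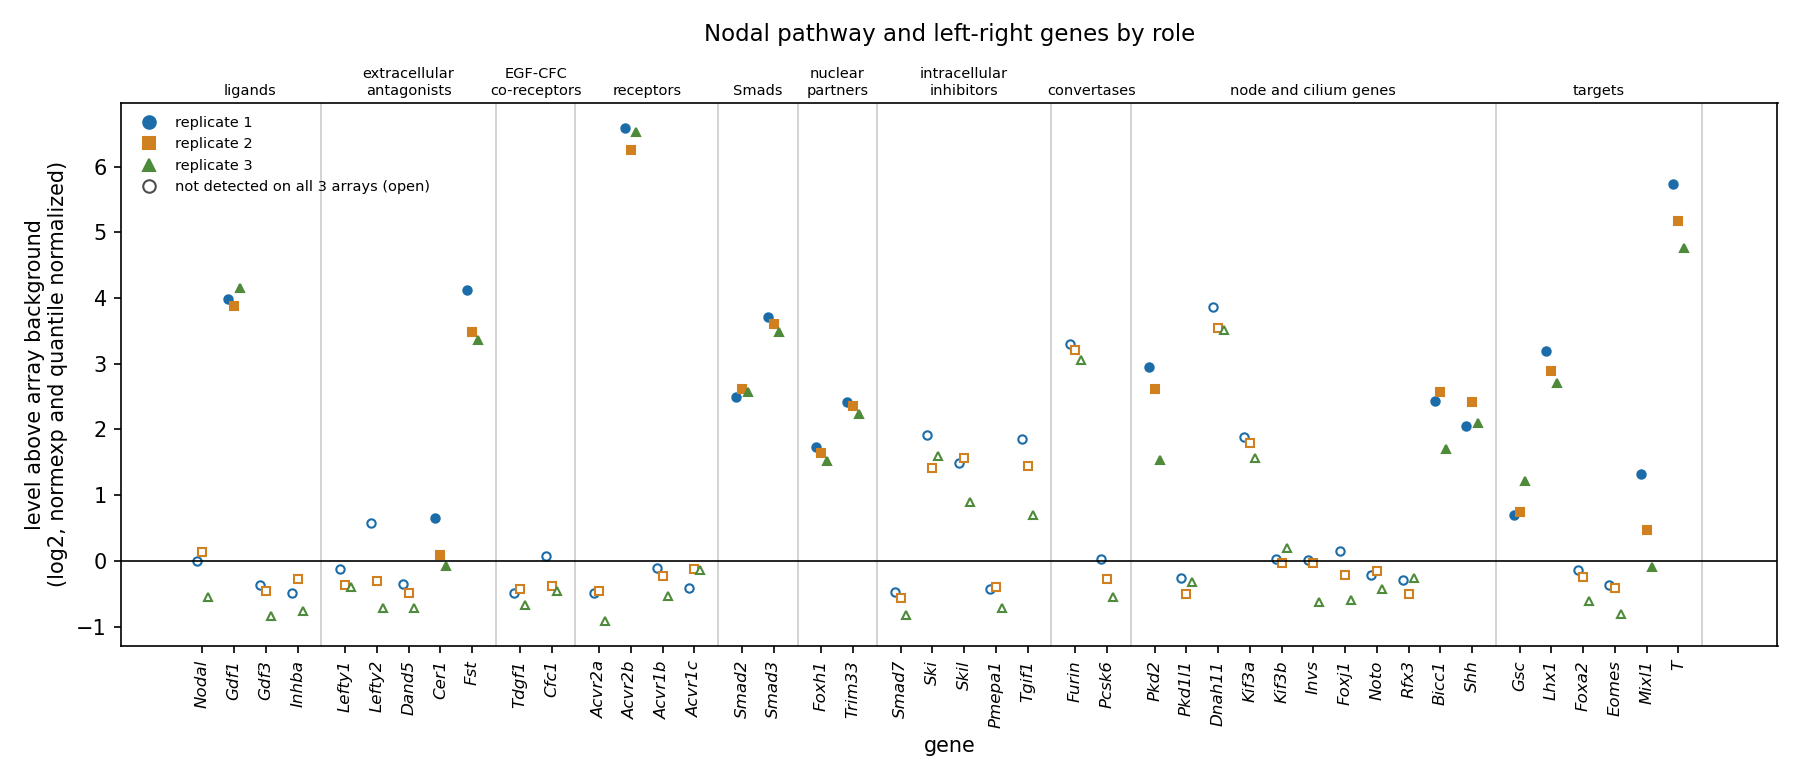
Level above the background of the same array (y axis, log2 scale after normexp and quantile normalization) of the 43 genes by role, on replicates 1, 2, and 3. Filled points mark the 15 genes detected on all 3 arrays. *Acvr2b*, *Gdf1*, *Smad2*, *Smad3*, and *Foxh1* lay above background on each array, while *Nodal*, *Gdf3*, the Lefty genes, and the co-receptors lay close to it or below, except *Lefty2* on replicate 1 at 0.58.

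Of 11 genes known for LR patterning at the node and in its cilia, 3 were above background, a share near the 20.6% of all symbols. *Pkd2*, a calcium channel required for sensing nodal flow, gave log2 signals of 8.34, 7.98, and 7.15 on replicates 1, 2, and 3. *Shh*, the midline signal, had 7.69, 7.84, and 7.47. *Bicc1*, an RNA-binding protein that acts in nodal flow, had 7.96, 7.95, and 7.24. These genes were detected on all 3 arrays, though *Pkd2* and *Bicc1* were dimmest on replicate 3 both as deposited and after normalization (levels of 1.54 and 1.70 against 2.95 and 2.43 on replicate 1). *Pkd1l1*, the partner of Pkd2, and the ciliary regulator *Rfx3* were detected on no array. *Foxj1*, the regulator of motile cilia, passed the threshold on replicate 1 only, and *Noto*, a regulator of node cilia, on replicates 2 and 3 with a level of -0.27 relative to background. *Dnah11*, which encodes the dynein heavy chain of nodal cilia, had signals of 9.09, 8.69, and 8.48, each a mean of 2 probes, but combined detection p-values of 0.0305, 0.205, and 0.0559, so it was not called.

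Of 6 genes known to respond to Nodal in the streak, node, and endoderm, 4 were above background, where 20.6% of all symbols were. *T* (Brachyury), a marker of streak and notochord, gave log2 signals of 10.78, 10.17, and 9.56 on replicates 1, 2, and 3. *Lhx1* had 8.53, 8.19, and 7.87, and *Gsc*, an organizer gene, had 6.97, 6.92, and 6.99. *Mixl1* had 7.27, 6.82, and 6.56. *Eomes* was detected on no array and *Foxa2* on replicate 2 only, with levels of -0.53 and -0.33 relative to background.

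The content of the samples was described with marker lists. These were chosen with earlier results of these data known, so they are no independent check. Beside the 20.6% of all symbols called, 9 of 12 markers of the embryonic region were above background, among them *T*, *Otx2*, *Hoxb1*, and *Meox1*. *Six3* and *Foxa2* were each detected on 1 array and *Sox2* on 2. Of 6 visceral endoderm markers, 5 were above background (*Ttr*, *Apoa1*, *Amn*, *Cubn*, and *Apob*), and of 5 extraembryonic ectoderm markers, 2 were (*Cdx2* and *Rhox5*), while *Elf5* and *Ascl2* were detected on no array and *Esrrb* on 1. *Cdx2* is also known from the posterior of the embryo. None of 3 trophoblast and decidua markers and none of 7 genes of adult tissues was detected on any array. The median level of the adult genes was -0.55 relative to background.

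The visceral endoderm list moved between arrays. Its mean level was 4.33, 4.68, and 3.48 above background on replicates 1, 2, and 3. Its summed signal after background correction and quantile normalization, on the linear scale, was 6632, 8715, and 5807. Its brightest probe on each array was that of *Apoa1*. Here and below, the brightest probe is named because it weighs most in the sum, and this does not rank the genes by expression. The level of *Nodal*, which was not above background, had the same order over the arrays, at 0.0025, 0.13, and -0.55. Its deposited signals on replicates 1 and 2 differed by less than the standard error over beads. *Tdgf1*, detected on no array, also had this order, at -0.49, -0.42, and -0.68. The mean level of the extraembryonic ectoderm list had this order too, at 1.72, 1.73, and 1.21, with little between replicates 1 and 2. Within it *Rhox5* (4.69, 4.91, and 3.45) and *Esrrb* had this order. *Cdx2* (4.76, 4.58, and 4.24), *Elf5*, and *Ascl2* did not, being highest on replicate 1. The embryonic region list had means of 2.34, 1.85, and 1.83 and summed signals of 3043, 2400.2, and 2796, with the probe of *T* brightest on each array. *Lefty2* was highest on replicate 1, where that list was highest. So were other genes not called, *Lefty1* (-0.12, -0.36, and -0.40), *Cfc1* (0.069, -0.37, and -0.45), and *Gdf3* (-0.37, -0.46, and -0.83). The sum of the embryonic region list was higher on replicate 3 than on replicate 2, although the deposited log2 signals of *T* (9.56 against 10.17) and *Otx2* (9.29 against 9.39) were lower there. The extraembryonic ectoderm list had summed signals of 1348, 1506, and 986, with the probe of *Cdx2* brightest on replicates 1 and 3 and that of *Rhox5* on replicate 2. The trophoblast and decidua list stayed near background, with means of -0.37, -0.41, and -0.69. The genes of adult tissues, detected on no array, had means of -0.37, -0.52, and -0.70. Lists without a detected gene were thus also highest on replicate 1 and lowest on replicate 3. With 3 arrays no relation can be tested, and the part of tissue content in the levels of *Nodal* and *Lefty2* was not tested.

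**Figure D4:**
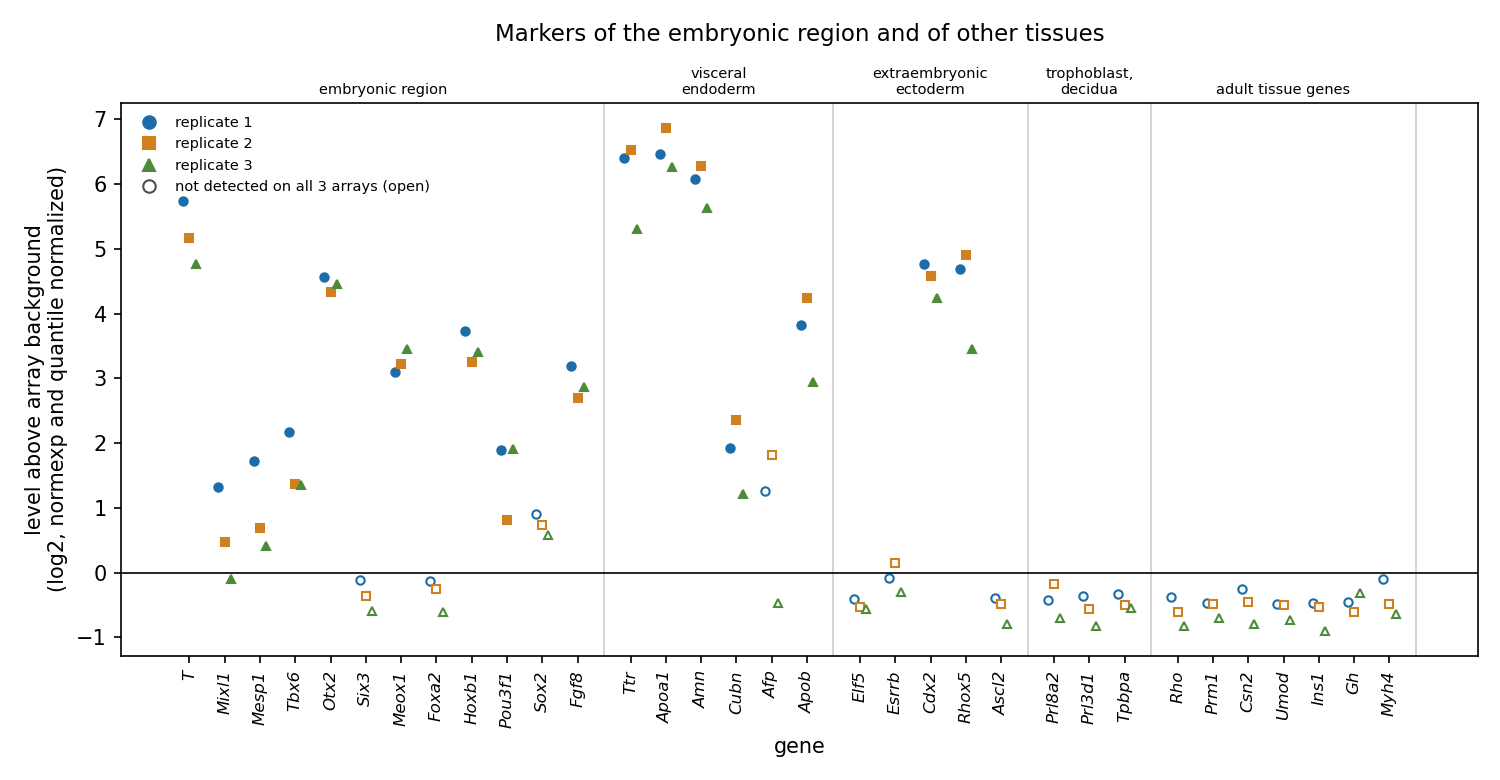
Level above the background of the same array (y axis, log2 scale) of markers of the embryonic region, visceral endoderm, extraembryonic ectoderm, and trophoblast and decidua, and of genes of adult tissues, on replicates 1, 2, and 3. Filled points mark genes detected on all 3 arrays, and the genes of adult tissues lay below 0 on each array.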

How the data were processed

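RNA from 3 samples of a single group, wild-type EHF stage embryonic regions, was measured on Illumina Mouse-6 arrays. The authors deposited log2 signals averaged per gene symbol and not normalized between arrays, numbers of beads (a score averaged over probes), standard errors over beads on the linear intensity scale, and the detection p-value of each symbol. Partek is named in the submitters' processing notes, and its settings are not given in the sources used here. All columns were assigned to samples by title.

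Detection p-values of symbols with 1 inferred probe moved in steps of 1 in 936 (97.2% within a tolerance of 0.002), which gave the number of control probes. Symbols with 1 probe and a p on these steps on every array (21986) set the normexp background (offset 16). Values were then quantile normalized and set against the background level of the same array, the lowest level among these symbols with a detection p above 0 and under 0.01. Symbols with several probes can be detected below it. The difference was tested with limma (one-sided, intercept only, eBayes) across all 30854 symbols, and p-values adjusted by the Benjamini-Hochberg method were called under 0.05. The shift between background levels (4.69, 4.81, and 5.06) is shared by all genes, so the fit gave each the same standard error and the p-values take that spread as given. The test was checked on simulated data.

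The 9 genes and all lists were chosen with earlier results of these data known. The rule named the 9 genes whatever their values, and from the lists the genes above background and others for comparison. Some listed genes are not analysed here, and the counts leave those out. Other listed genes are counted and not described singly. A percentile of each gene among all symbols was planned and left out, since levels of different probes are not comparable. The division of the detection p of *Nodal* between its probes was chosen after its values were seen. Genes of like pattern were not sought, since 3 arrays of 1 group give none. Older symbols and promoters came from RefSeq (GRCm38.p6). Alternatives were other detection thresholds, fewer arrays, other normalizations and background levels, symbols with 1 probe only, and leaving out each replicate. The number of arrays limits the precision of each level. Python 3.11.15, numpy 2.4.6, pandas 2.3.3, R 4.3.3, and limma 3.58.1 were used.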

Additional observations from a re-analysis of the deposited data

How the results depend on the processing

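*Gdf1*, *Acvr2b*, and *Smad2* were called under each of 8 alternatives to the detection rule and each of 9 alternatives to the limma setting. The count of the 9 genes above background was 3, and it became 6 with detection on at least 1 array. That rule, which asks less of each gene, also gave 25 of the 43 pathway genes where the chosen rule gave 15. Over all symbols that rule called 33% and the chosen rule 20.6%, and no test sets these genes apart from others. Without a replicate the counts were 3 to 3 of the 9 genes under either test and 16 to 16 of the 43. In the limma test, taking as background the median level of symbols with a detection p between 0.4 and 0.6, a lower bar by construction, gave 6 of the 9 genes and 37.1% of all symbols, and 3 of the 9 were called under every other setting. With that background the level of *Nodal* was 0.41 (adjusted p from limma 0.0159), of *Lefty1* 0.25 (0.0163), of *Cfc1* 0.29 (0.0223), of *Lefty2* 0.40 (0.123), and of *Tdgf1* 0.018 (0.570), in each case above 0. Leaving out 1 replicate moved the level of *Nodal* between -0.27 and 0.077 and that of *Lefty2* between -0.43 and 0.15. Both were above 0 without replicate 3 only, and neither passed the threshold. *Nodal* has 2 probes and so no value with symbols of 1 probe only. The cause was not tested. No paired analysis was possible because all arrays belong to 1 group. Distance from the control probes sets what can be called here, and a gene near the control probes is not shown to be absent.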

Other observations

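The neighbouring branches of TGFβ signalling were examined through 9 genes picked after the values of the Nodal pathway had been seen. The BMP receptors *Acvr1* and *Bmpr1a* were above background on all 3 arrays, with mean log2 signals of 7.47 (SD 0.20, n = 3) and 7.77 (SD 0.43, n = 3). *Smad6*, an inhibitor of BMP signalling, was above background at 6.89 (SD 0.19, n = 3). *Smad1* and *Smad5*, the transducers of BMP signals, were detected on 2 arrays each, with means of 7.12 (SD 0.33) and 7.05 (SD 0.18), and *Smad9* on none. The normalized levels of *Smad1* and *Smad5* were 1.17 and 1.06 above background and passed the limma test (adjusted p 6.97e-15 and 2.25e-12). *Tgfbr1*, with 4 probes and a mean of 8.73 (SD 0.31), was detected on no array by its combined p although its normalized level was 3.60 above background. *Tgfbr2* and *Bmpr2* were detected on no array, with means of 6.54 (SD 0.15) and 6.44 (SD 0.06). *Smad1* and *Tgfbr2* have 4 probes, *Bmpr2* has 3, and *Smad5* has 2, and a combined p can hide a single probe with signal.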
